A study of Mus musculus with 6 samples.

Results

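The genes described here encode fibrillar collagens: Col1a1, Col1a2, Col3a1, Col5a1, Col5a2, Col5a3 and Col27a1, 7 of the 14492 genes in the deposited table of mouse liver RNA. They were taken as a given list of symbols, kept where present. Of the 11 mouse genes of the family, 9 are in the table. The 7 listed genes are those that passed the test in this comparison, and Col11a2 and Col24a1, which are in the table but not listed, did not pass it or were too low to test. Whatever the order of choice, the members are in effect selected on the fold change and adjusted p of this same comparison. The values of the 7 genes in the 6 libraries, with their limma intervals and calls, are therefore given as a description. Col2a1 and Col11a1 were not analysed here.

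Fibrillar collagens are the rods from which the fibres of connective tissue are built. Their pro-alpha chains fold into a triple helix in the endoplasmic reticulum, are trimmed outside the cell and assemble side by side into fibrils that lysyl oxidases crosslink. Type I collagen joins the Col1a1 and Col1a2 products, type III is made of Col3a1 chains alone, and type V, a minor component that limits fibril width, is built from the Col5 chains. In liver, hepatic stellate cells and portal fibroblasts are known as the main source of types I and III, and their build-up is the hallmark of fibrosis.

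Liver RNA came from male C57BL/6J mice, 8 weeks old, that were injected through the tail vein and fed a high-fat diet for 2 weeks from the same time. The labels name 3 libraries injected with vehicle and 3 injected with a Chrna4-overexpressing adenovirus, a viral carrier of the gene of a nicotinic acetylcholine receptor subunit. A treatment note on all samples speaks of adenovirus injection, and neither the content of the vehicle injection nor the promoter of the vector is stated. Each library has its own liver number, and nothing else in the labels says that the samples are separate animals. The p-values measure the spread between these samples only.

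Values are reads per 1000000 of a scaled library total (CPM), deposited by the authors as a signal per library. The libraries held 14959338 to 22440334 reads, and 12099 genes with a mean of at least 1 CPM were tested with limma. Higher in the Chrna4 group were 1721 genes (14.2%) and lower 1241 (10.3%) at an adjusted p of 0.05. With plain library totals in place of the authors' scaling, the median over the genes tested moved by 0.31 on the log2 scale and the calls became 4542 higher and 340 lower. Vehicle replicate 1 stood apart: its Spearman correlation across genes with the other vehicle libraries was 0.978 and 0.974, against 0.990 between those and 0.989 to 0.994 within the Chrna4 group. Mouse Chrna4, which checks the labels, lay at 1.70, 4.99 and 3.38 CPM in vehicle and at 3.70, 2.17 and 3.82 in the Chrna4 group, with overlapping groups, so this gene does not show the labelled overexpression. Nothing in the labels says whether transcripts of the vector are counted as this gene.

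The start regions of 4 genes are shown because they belong to members that moved in opposite directions. Col3a1 and Col5a1 were higher in the Chrna4 group, and Col5a3 and Col27a1 were lower. The sequences are the 250 bases before the RefSeq start in GRCm38.p6, 5′ to 3′ on the gene's strand. Capitals mark matches to the motifs searched that lie wholly within these bases. A GGGCGG match of Col5a3 that runs across the start is not marked. The Col3a1 region lies at chr1:45311288-45311537 on the plus strand and that of Col5a1 at chr2:27886175-27886424 on the plus strand. The Col5a3 region lies at chr9:20815068-20815317 on the minus strand and that of Col27a1 at chr4:63215162-63215411 on the plus strand. The Col27a1 stretch lies inside the annotated gene, which starts at 63214004, and 0 of its bases lie in annotated exons of the gene.
Col3a1: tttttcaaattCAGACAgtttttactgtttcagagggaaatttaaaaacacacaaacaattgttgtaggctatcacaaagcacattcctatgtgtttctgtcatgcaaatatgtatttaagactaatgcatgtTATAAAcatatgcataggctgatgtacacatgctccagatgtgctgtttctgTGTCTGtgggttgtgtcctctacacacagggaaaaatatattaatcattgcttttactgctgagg
Col5a1: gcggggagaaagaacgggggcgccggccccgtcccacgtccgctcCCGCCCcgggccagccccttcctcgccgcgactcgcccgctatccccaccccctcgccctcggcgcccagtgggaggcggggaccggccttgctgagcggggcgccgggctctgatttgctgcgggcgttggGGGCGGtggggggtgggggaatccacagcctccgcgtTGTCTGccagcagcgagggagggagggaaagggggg
Col5a3: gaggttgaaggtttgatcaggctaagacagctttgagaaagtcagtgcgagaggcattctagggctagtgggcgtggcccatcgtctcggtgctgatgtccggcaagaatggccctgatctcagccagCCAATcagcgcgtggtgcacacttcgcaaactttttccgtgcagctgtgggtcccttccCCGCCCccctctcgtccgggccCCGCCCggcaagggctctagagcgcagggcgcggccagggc
Col27a1: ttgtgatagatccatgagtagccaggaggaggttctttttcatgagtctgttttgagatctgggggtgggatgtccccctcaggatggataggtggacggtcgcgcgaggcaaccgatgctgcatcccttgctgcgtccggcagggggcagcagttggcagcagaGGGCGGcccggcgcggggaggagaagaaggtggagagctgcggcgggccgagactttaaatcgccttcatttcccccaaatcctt

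RefSeq start windows of 300 bases, from 250 before to 50 after the start, were on hand for 5 of the 7 genes: these 4 and Col1a2. Of the 250 bases before the RefSeq start of Col1a2, 127 lie in exons of other annotated Col1a2 transcripts, and they are not printed. G and C made up 37.7% of the Col3a1 window, against 61.0% for Col1a2, 61.7% for Col27a1, 63.3% for Col5a3 and 75% for Col5a1. The median of the 32851 mouse start windows was 52.7%. Col3a1 was thus the one AT-rich window among the 5.

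Motifs were searched on both strands of the 300 bases. GGGCGG, the GC box, was in 4 of the 5 windows, those of all but Col3a1, and in 35.7% of all mouse windows. Those 4 are Col5a3 and Col27a1, which were lower in the Chrna4 group, and Col1a2 and Col5a1, which were higher. CCAAT was in the windows of Col1a2 and Col5a3 and in 37.4% of all windows; its first base lay 109 bases before the start in Col1a2, with a further match on the other strand at the start itself, and 122 before it in Col5a3. CAGACA, a sequence that Smad proteins can bind, was in the windows of Col1a2, Col3a1 and Col5a1 and in 21.04% of all windows. TATAAA was in that of Col3a1 alone, 117 bases before the start, and in 13.6% of all windows. TGANTCA, the AP-1 motif, was in none of the 5 and in 7.81% of all windows. Matches do not overlap each other, and they describe letters only.

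The type I and type III genes were the most increased of the 7. Col1a1 (ENSMUSG00000001506, chromosome 11, 94936224 to 94953042, plus strand), which encodes the main chain of type I collagen, lay at 5.63, 6.65 and 12.4 CPM in vehicle and at 79.0, 88.2 and 91.8 CPM in the Chrna4 group. The lowest Chrna4 library was far above the highest vehicle library. The means were 8.22 ± 3.63 and 86.4 ± 6.59 CPM (SD, n = 3), 10.5-fold apart, and the log2 fold change was 3.31 (SE 0.23, 95% interval 2.78 to 3.85). Fold changes on the log2 scale are limma estimates of log2(CPM + 1), which understates changes of low genes.

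Col1a2 (ENSMUSG00000029661, chromosome 6, 4504814 to 4541544, plus strand), the other type I chain, lay at 11.8, 10.0 and 15.0 CPM in vehicle and at 65.3, 79.6 and 79.1 CPM in the Chrna4 group. The groups did not overlap. Its mean went from 12.3 ± 2.52 to 74.7 ± 8.10 CPM (SD, n = 3), 6.08-fold, with a log2 fold change of 2.52 (SE 0.15, 95% interval 2.17 to 2.87). The 95% intervals of Col1a1 and Col1a2 overlap only at their ends, from 2.78 to 2.87, and the difference between the 2 fold changes was not tested.

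Col3a1 (ENSMUSG00000026043, chromosome 1, 45311538 to 45349706, plus strand), the chain of type III collagen, lay at 16.9, 25.5 and 41.4 CPM in vehicle. Its Chrna4 libraries lay at 198.9, 217.9 and 230.2 CPM, apart from vehicle. The means were 27.9 ± 12.4 and 215.7 ± 15.8 CPM (SD, n = 3), 7.73-fold apart, and the log2 fold change was 2.99 (SE 0.26, 95% interval 2.39 to 3.59). As for Col1a1, the vehicle libraries spread widely, with the highest value in vehicle replicate 3 and the lowest in replicate 1.

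**Figure D1:**
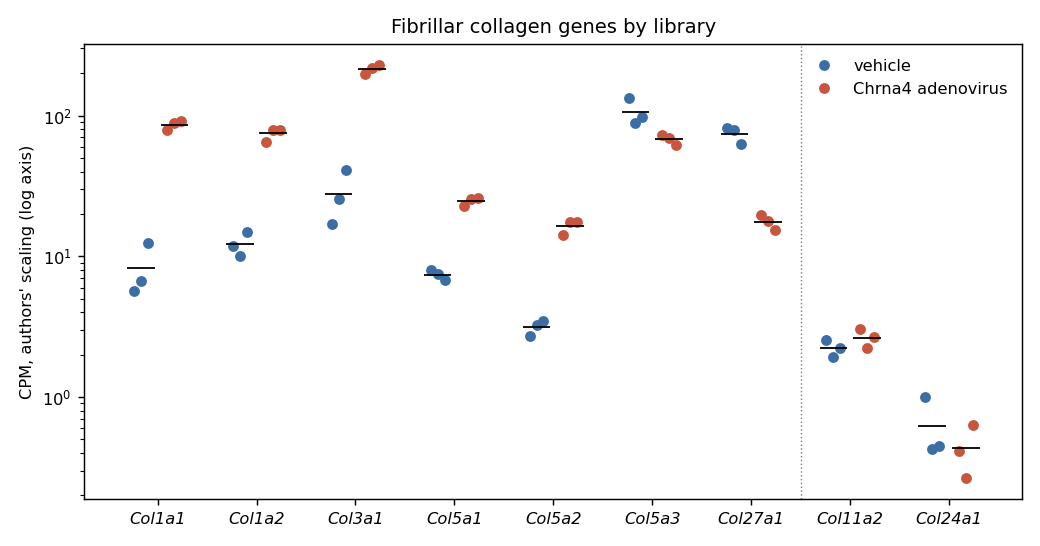
CPM of each fibrillar collagen gene in the 6 libraries on a log axis, vehicle in blue and Chrna4 adenovirus in red; bars mark the group means, and the genes right of the dotted line are not on the list. The groups lie apart in the 7 listed genes, 5 higher and 2 lower in the Chrna4 group, and overlap in Col11a2 and Col24a1.

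Among the type V genes, Col5a1 and Col5a2 went up and Col5a3 went down. Col5a1 (ENSMUSG00000026837, chromosome 2, 27886425 to 28039514, plus strand), the main type V chain, lay at 8.02, 7.46 and 6.75 CPM in vehicle and at 22.8, 25.5 and 26.0 CPM in the Chrna4 group. Values within each group were close together. Its mean went from 7.41 ± 0.637 to 24.8 ± 1.75 CPM (SD, n = 3), 3.34-fold, with a log2 fold change of 1.62 (SE 0.12, 95% interval 1.34 to 1.89).

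Col5a2 (ENSMUSG00000026042, chromosome 1, 45374321 to 45503282, minus strand), the partner of Col5a1 in the common type V molecule, lay at 2.70, 3.27 and 3.48 CPM in vehicle. It lay at 14.1, 17.5 and 17.6 CPM in the Chrna4 group, apart from vehicle. The means were 3.15 ± 0.402 and 16.4 ± 2.01 CPM (SD, n = 3), 5.21-fold apart, and the log2 fold change was 2.07 (SE 0.15, 95% interval 1.73 to 2.40). Col5a2 and Col3a1 are neighbours on chromosome 1: their 3′ ends face each other 24.6 kb apart, with 0 genes of the table between them.

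Col5a3 (ENSMUSG00000004098, chromosome 9, 20770050 to 20815067, minus strand), the least common type V chain, lay at 134.4, 88.5 and 97.6 CPM in vehicle and at 72.8, 69.8 and 61.8 CPM in the Chrna4 group. The groups did not overlap, but vehicle replicate 1 lay far above the other libraries. The mean went from 106.9 ± 24.3 to 68.1 ± 5.67 CPM (SD, n = 3), 1.57-fold lower, with a log2 fold change of -0.62 (SE 0.15, 95% interval -0.97 to -0.27). This was the smallest change of the 7. It was -0.29 with plain library totals, and it no longer passed the test there or when any 1 of the Chrna4 libraries was left out, at -0.67, -0.64 and -0.55 without replicates 1, 2 and 3.

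Col27a1 (ENSMUSG00000045672, chromosome 4, 63214004 to 63334991, plus strand) encodes type XXVII collagen, a fibrillar chain known mainly from cartilage. It lay at 81.7, 79.4 and 62.4 CPM in vehicle and at 19.7, 17.7 and 15.4 CPM in the Chrna4 group, so that each Chrna4 library held less than the lowest vehicle library. The mean went from 74.5 ± 10.5 to 17.6 ± 2.15 CPM (SD, n = 3), 4.23-fold lower, with a log2 fold change of -2.02 (SE 0.14, 95% interval -2.33 to -1.70). With plain library totals the log2 fold change was -1.69.

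Of the 7 genes, 5 passed the limma test as higher, where 14.2% of all genes tested did, and 2 as lower, where 10.3% did. The 3 values of each group lay apart in each of the 7 and in 43.0% of all genes tested. Because the list follows this comparison, nothing is read from these counts. Every member had between 166 and 5359 reads over the vehicle libraries, so none was in the table through the Chrna4 group alone. Without vehicle replicate 1, the log2 fold changes were 3.11 for Col1a1, 2.50 for Col1a2, 2.69 for Col3a1, 1.67 for Col5a1, 1.99 for Col5a2, -0.45 for Col5a3 and -1.95 for Col27a1. All 7 kept their direction. In tissue RNA, fewer or more cells of a type and less or more RNA per cell cannot be told apart.

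**Figure D2:**
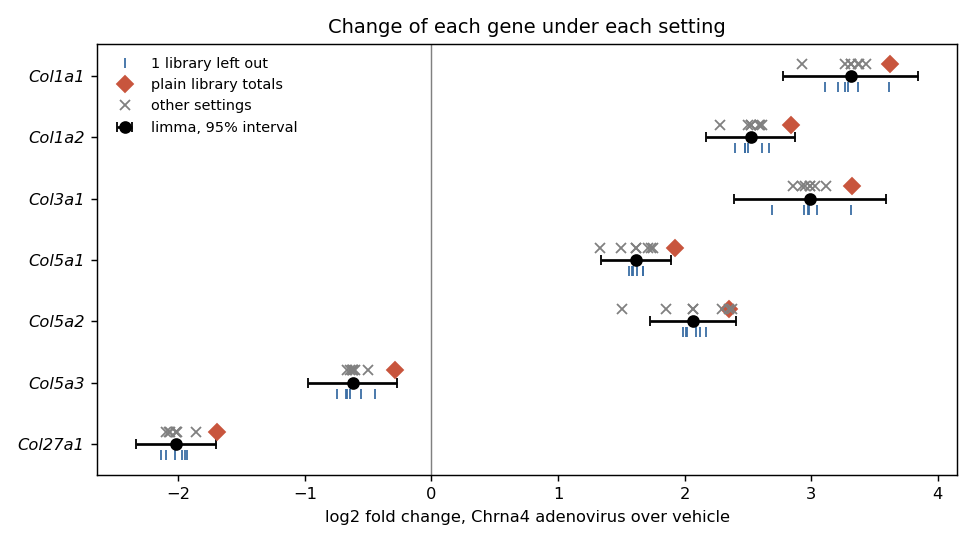
Log2 fold change of each listed gene, Chrna4 adenovirus over vehicle, as the limma estimate with its 95% interval (black), without each library in turn (blue), with plain library totals (red) and with the other settings (grey). Each gene stays on its side of 0, and Col5a3 comes closest to it, at -0.29 with plain library totals.

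The members also differed in how libraries of a group were ordered. In vehicle, replicate 3 held the highest value of Col1a1, Col1a2, Col3a1 and Col5a2 and the lowest of Col5a1 and Col27a1. In the Chrna4 group, replicate 1 held the lowest value of all 5 genes that were higher and the highest of both that were lower. These are 3 libraries a group, and the order is a description.

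As a share of all reads, the 7 genes together held 0.0223, 0.0204 and 0.0214% in vehicle, against 0.0538, 0.0579 and 0.0579% after the Chrna4 virus. The 5 higher genes went from 0.00527 ± 0.00166% to 0.0469 ± 0.00318% (SD, n = 3). The 2 lower genes went from 0.0161 ± 0.00211% to 0.00964 ± 0.0010% (SD, n = 3). Vehicle reads of the family thus came mostly from Col5a3 and Col27a1, and Chrna4 reads mostly from the others.

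Levels of different genes were compared per kilobase of the gene's annotated exons. In vehicle, Col5a3 was the highest at 15.7 ± 3.57 CPM per kb (SD, n = 3), followed by Col27a1 at 5.72 ± 0.809 and Col3a1 at 2.84 ± 1.26. Each of the first 2 lay apart from the next gene in all 3 libraries. Below came Col1a1 at 1.25 ± 0.553, Col1a2 at 0.988 ± 0.202, Col5a1 at 0.873 ± 0.0750 and Col5a2 at 0.328 ± 0.0419 CPM per kb. From Col3a1 down to Col5a1, each gene's range overlapped that of the next, and Col5a2 lay below them all.

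In the Chrna4 group the order per kb was led by Col3a1 at 21.97 ± 1.61 CPM per kb (SD, n = 3) and Col1a1 at 13.2 ± 1.003. Col5a3 came next at 10.0 ± 0.833, ahead of Col1a2 at 6.01 ± 0.652 and Col5a1 at 2.92 ± 0.206. Col5a2 at 1.71 ± 0.209 and Col27a1 at 1.35 ± 0.165 CPM per kb closed the order. Only the ranges of these last 2 overlapped. Col27a1 thus went from next to the top to the last place.

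With the length of the longest annotated transcript in place of all exons, Col1a2 moved up in both groups, since its exons cover 12426 bases and its longest transcript 5348. On that scale Col1a2 stood at 2.30 CPM per kb in vehicle and 13.96 in the Chrna4 group. Its range then overlapped that of Col1a1, at 1.39 and 14.6, in both groups. Which transcripts were present is not given by the table.

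Of the summed CPM per kb of the 7 genes, Col5a3 held 64.2, 52.6 and 52.0% in vehicle, against 19.8, 17.5 and 15.4% after the Chrna4 virus. Col3a1 went the other way, from 5.59, 10.5 and 15.3% to 37.6, 37.97 and 39.8%. Col1a1 held 4.57 ± 2.06% in vehicle and 23.01 ± 0.694% in the Chrna4 group (SD, n = 3). Type III and type I transcripts thus made up most of the sum in each Chrna4 library, and Col5a3 and Col27a1 in each vehicle library. Col27a1 held 20.8 ± 3.65% and 2.38 ± 0.403%, and Col1a2 3.57 ± 0.697% and 10.5 ± 0.653%. The shares of Col5a1, 3.17 and 5.10%, and of Col5a2, 1.203 and 2.99%, remained small in both groups.

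**Figure D3:**
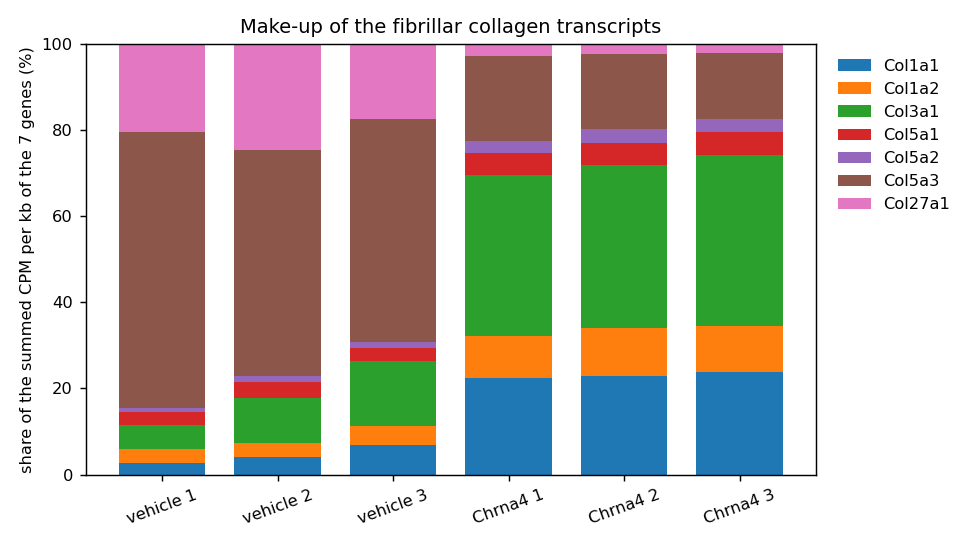
Share of each gene in the summed CPM per kb of annotated exon of the 7 fibrillar collagen genes, as stacked bars for each library. Col5a3 (brown) holds 52.0 to 64.2% of the vehicle bars and 15.4 to 19.8% of the Chrna4 bars, while Col3a1 (green) holds 37.6 to 39.8% of the Chrna4 bars.

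Ratios between chains were steadier among the Chrna4 libraries than among the vehicle ones. Per kb of exon, Col1a1 stood to Col1a2 as 0.903, 1.26 and 1.56 in vehicle and as 2.29, 2.10 and 2.20 in the Chrna4 group, without overlap. Type I collagen is commonly built from more of the Col1a1 chain than of the Col1a2 chain. With longest transcripts the mean ratios were 0.591 and 1.05, so the level of this ratio depends on the length used, while its change between groups does not. The ratio of Col3a1 to Col1a1 was 2.01, 2.56 and 2.24 in vehicle and 1.68, 1.65 and 1.68 in the Chrna4 group.

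Col5a3 stood to Col5a1, another type V chain, as 20.9, 14.8 and 18.02 in vehicle and as 3.99, 3.41 and 2.96 in the Chrna4 group, per kb of exon. The groups lay far apart. The ratio of Col27a1 to Col1a1 had a mean of 5.29 ± 2.46 in vehicle and 0.104 ± 0.0207 in the Chrna4 group (SD, n = 3), with 2.54 as the lowest vehicle value, in replicate 3. Ratios of genes that moved in opposite directions carry no more than the values above. With 3 libraries against 3, an exact permutation test of a ratio could not go below p = 0.1, and none was made.

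The fibrillar collagen genes outside the list were low. Col11a2, which encodes a minor chain of cartilage fibrils, lay at 2.55, 1.93 and 2.23 CPM in vehicle and 3.05, 2.22 and 2.65 CPM in the Chrna4 group. The groups overlapped, and the log2 fold change was 0.17 with a 95% interval from -0.21 to 0.55 (limma, adjusted p = 0.512). Col24a1 lay at 1.003, 0.429 and 0.447 CPM in vehicle and 0.411, 0.265 and 0.636 CPM in the Chrna4 group, from 5 to 13 reads a library. It was below the level for testing.

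Genes that act on fibrillar collagens were taken from lists by role, and tests are limma's, adjusted over all 12099 genes. Over all the lists, 34 of 87 genes tested rose and 2 fell, where 14.2% of all genes tested rose and 10.3% fell. The median log2 fold change was 0.38, against -0.01 for all genes tested. The 87 include Col11a2, itself a fibrillar collagen gene. With plain library totals, which gave 4542 higher and 340 lower calls over all genes, 52 rose and 0 fell. The filter used the mean of all libraries, so a gene very low in vehicle could enter the test through the Chrna4 group alone. Such a gene could be called higher but not lower. How many genes of the lists did so was not counted. Without the filter on low values, 33 rose and 3 fell. Adjusted p-values of the genes of these lists that were named by rule lay between 0.000240 and 0.0161 (limma).

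Inside the cell, collagen chains are hydroxylated, glycosylated and folded before export. Of 19 listed genes of modification and folding, 17 were tested, 5 rose and 0 fell, with a median log2 fold change of 0.22. Serpinh1, the gene of the collagen chaperone HSP47, was at 15.4, 13.9 and 15.8 CPM in vehicle and rose by 1.37 on the log2 scale (SE 0.10). Plod2, a lysyl hydroxylase gene, rose by 1.002 (SE 0.16) and Colgalt1, a collagen galactosyltransferase gene, by 0.63 (SE 0.09). Over the settings the Plod2 estimate ranged from 0.46 to 1.67, and Plod2 may have entered the test through the Chrna4 group alone. The other 12 tested genes of the list did not pass the test.

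Procollagen leaves the endoplasmic reticulum in large COPII carriers. Of 12 listed export genes, 1 rose and 2 fell, with a median of -0.10. Creb3l1, a transcription factor gene of collagen-secreting cells, rose by 0.83 (SE 0.16). Mia2, which encodes a cargo receptor for bulky cargo, and Sar1b, the gene of a GTPase of the coat, fell by 0.47 (SE 0.08) and 0.58 (SE 0.10). None of these 3 calls was stable to the scaling: Mia2 was at -0.13 and Sar1b at -0.24 with plain totals (limma, adjusted p = 0.263 and 0.116), and Creb3l1 at 0.46 after quantile normalization (limma, adjusted p = 0.0659). Liver cells also use this coat for other cargo.

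Outside the cell, propeptides are cut off and fibrils are crosslinked. Of 10 listed genes of propeptide removal, 5 were tested and 2 rose: Adamts2, the procollagen N-proteinase gene, by 1.52 (SE 0.14) and Pcolce, whose product enhances the C-proteinase, by 1.30 (SE 0.13). All 5 lysyl oxidase genes rose and 0 fell, with a median of 1.02. Loxl1 rose by 1.52 (SE 0.19), Lox by 1.31 (SE 0.19) and Loxl2 by 0.91 (SE 0.14). Over the settings the Lox estimate ranged from 0.57 to 2.56, and Lox may have entered the test through the Chrna4 group alone. The levels were low, and the sum of the 5 went from between 7.64 and 8.89 CPM in vehicle to between 21.9 and 26.6 CPM in the Chrna4 group. With a filter of 5 CPM, which leaves genes of a lower mean untested, 1 of these genes was called higher.

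Of 12 listed proteoglycans and other partners of the fibril, 11 were tested, 5 rose and 0 fell, with a median of 0.53. Lum, which encodes lumican, a proteoglycan of the fibril surface, rose by 1.55 (SE 0.16), Sparc, a collagen-binding matricellular protein gene, by 1.37 (SE 0.13), and Bgn, which encodes biglycan, by 0.94 (SE 0.11). The summed level of the list overlapped between the groups, at 2118 to 2472 and 1784 to 2310 CPM. Fn1, chosen after its values were seen, holds most of that sum, at 1792 to 2126 CPM in vehicle and 1247 to 1674 CPM in the Chrna4 group, below vehicle in all 3 libraries (log2 fold change -0.36, limma, adjusted p = 0.117).

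Of 10 listed collagen receptors and uptake genes, 8 were tested, 3 rose and 0 fell, with a median of 0.39. Mrc2, the gene of the endocytic collagen receptor Endo180, rose by 1.97 (SE 0.16) and Ddr1, a collagen-activated receptor tyrosine kinase gene, by 1.18 (SE 0.15). Lair1, an inhibitory collagen receptor gene of immune cells, rose by 1.68 (SE 0.39) from 1.31, 5.74 and 6.40 CPM. The call of Lair1 was lost without Chrna4 replicate 1, 2 or 3, at adjusted p-values of 0.0620, 0.0541 and 0.0590 (limma).

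Matrix proteases cut collagen and are held in check by inhibitors. Of 12 listed genes of both kinds, 8 were tested, 7 rose and 0 fell, with a median of 1.11. With a filter of 5 CPM, which leaves genes of a lower mean untested, 5 were called higher. Mmp13, an interstitial collagenase gene of rodents, was at 0, 0.536 and 0.794 CPM in vehicle and rose by 3.09 (SE 0.24). Its vehicle mean of 0.444 CPM was below the filter of 1 CPM, so Mmp13 was tested only through the Chrna4 group. Timp1, the gene of a metalloproteinase inhibitor, rose by 2.17 (SE 0.19), and Mmp2, a gelatinase gene, by 2.07 (SE 0.15). The vehicle mean of Timp1, 0.265 CPM, was also below the filter of 1 CPM, so Timp1 too was tested only through the Chrna4 group. Genes whose products build collagen fibrils and genes whose products cut them were thus both among those that rose.

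Of 26 listed regulators of collagen genes, 20 were tested, 6 rose and 0 fell, with a median of 0.29. Tgfb1, the gene of a growth factor that induces collagen genes, rose by 0.80 (SE 0.13), and its receptor genes Tgfbr1 and Tgfbr2 by 0.62 (SE 0.12) and 0.53 (SE 0.11). The count of 6 fell to 3 without Chrna4 replicate 1, 2 or 3, and the call of Tgfbr2 was lost without Chrna4 replicate 3, at an adjusted p of 0.0564 (limma).

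**Figure D4:**
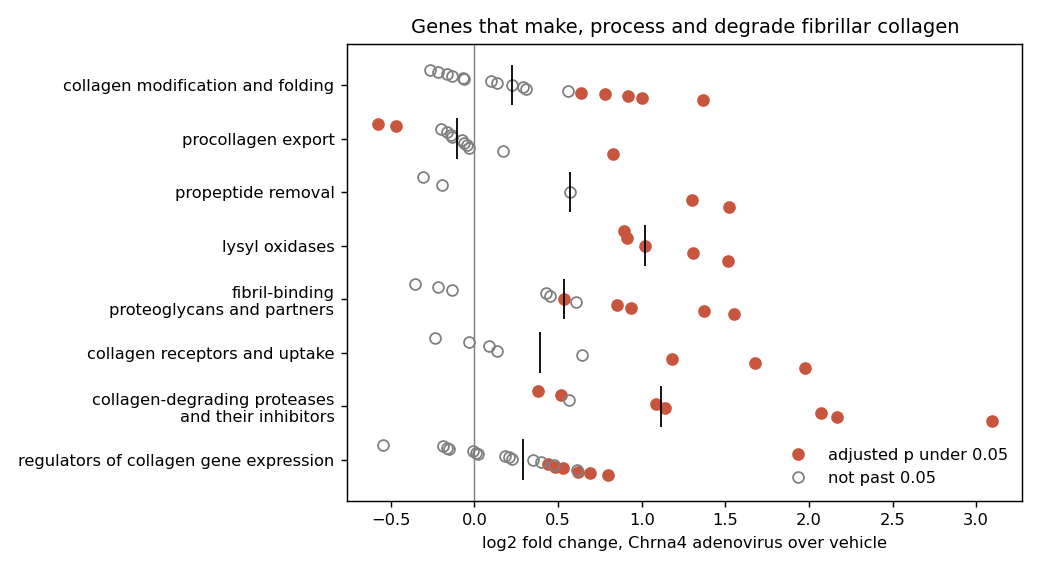
Log2 fold change of every tested gene of 8 lists of genes that make, process and degrade fibrillar collagen; filled points passed an adjusted p of 0.05 (limma), open points did not, and black lines mark list medians. The 5 lysyl oxidase genes and 7 of 8 protease and inhibitor genes are filled on the right of 0, and the export list holds the 2 filled points on its left.

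Markers of the cells that could carry collagen RNA were counted in the same fit. Of 10 stellate cell markers tested, 5 rose and 0 fell, with a median of 0.49. Their summed level was 134.7 to 161.2 CPM in vehicle and 207.2 to 224.2 CPM in the Chrna4 group. Cygb, which encodes cytoglobin, rose by 1.18 (SE 0.13) and Pdgfrb, the gene of a growth factor receptor of stellate cells, by 1.28 (SE 0.17). The count of 5 fell to 3 without vehicle replicate 3, Chrna4 replicate 1 or Chrna4 replicate 3.

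Of 6 myofibroblast markers, 4 were tested, 3 rose and 0 fell, and their sum lay between 31.8 and 33.3 CPM in vehicle and between 82.3 and 91.2 CPM in the Chrna4 group. Vim, which encodes the filament protein vimentin, rose by 1.63 (SE 0.13) and Pdgfra, a growth factor receptor gene, by 1.14 (SE 0.16). Acta2, the gene of smooth muscle actin and a defining marker of the myofibroblast, was named after its values were seen. It lay at 3.78, 1.56 and 0.844 CPM in vehicle and at 2.29, 3.07 and 2.81 CPM in the Chrna4 group (log2 fold change 0.39, limma, adjusted p = 0.418). Tagln, another marker of that kind, lay below 1 CPM in all 6 libraries.

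Of 10 portal fibroblast markers, 8 were tested, 5 rose and 0 fell, with sums of 17.6 to 19.3 and 38.6 to 49.4 CPM. Eln, which encodes elastin, rose by 1.38 (SE 0.18) and Dpt, which encodes dermatopontin, by 1.04 (SE 0.20). The count of 5 fell to 2 and 3 without Chrna4 replicates 2 and 3. It was 2 after quantile normalization and 2 with the filter of 5 CPM, which tests fewer genes. Of vascular smooth muscle markers 2 were tested and of mesothelium markers 3, and 0 passed in either direction. Their sums overlapped between groups, at 4.96 to 11.1 and 8.16 to 11.3 CPM for smooth muscle and 2.36 to 7.64 and 2.44 to 4.76 CPM for mesothelium.

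Markers of other liver cells moved too. Of 7 macrophage markers, all tested, 5 rose and 0 fell, and their sum was 265.4, 682.8 and 645.1 CPM in vehicle and 907.1 to 1002 CPM in the Chrna4 group. Vehicle replicate 1, the library that stood apart, was thus low in macrophage markers. Cd68, a lysosomal marker of macrophages, rose by 1.56 (SE 0.24) and Csf1r, the gene of their growth factor receptor, by 1.25 (SE 0.29). The count of 5 fell to 2, 1 and 1 without Chrna4 replicates 1, 2 and 3, and the call of Csf1r was lost without Chrna4 replicate 2 or 3 (limma, adjusted p = 0.0638 and 0.0633). Without vehicle replicate 1, 5 rose and 2 fell; those that fell were Clec4f, a Kupffer cell lectin gene, and Marco, a scavenger receptor gene, both named after their values were seen.

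Of 6 endothelial markers, 1 rose and 1 fell. Lyve1, a hyaluronan receptor gene, rose by 1.38 (SE 0.31), a call lost without Chrna4 replicate 2 or 3 (limma, adjusted p = 0.0642 and 0.0564). Clec4g, a lectin gene of the sinusoid, fell by 0.41 (SE 0.09), a call lost with plain totals (limma, adjusted p = 0.548) and without Chrna4 replicate 2 (limma, adjusted p = 0.0635). The sums of this list overlapped, at 219.4 to 292.0 and 246.7 to 298.2 CPM. With plain totals they did not, at 187.2 to 269.2 and 281.0 to 330.5.

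Of 6 bile duct markers, 2 were tested and 1 rose. That was Sox9, a progenitor and duct transcription factor gene, by 0.90 (SE 0.23), a call lost after quantile normalization and without vehicle replicate 2, Chrna4 replicate 1 or Chrna4 replicate 3 (limma, adjusted p = 0.0539, 0.0683, 0.0892 and 0.0877). The duct sums overlapped, at 41.4 to 72.5 and 52.6 to 82.0 CPM. Epcam and Krt19, too low to test and named after their values were seen, went the other way. Epcam lay at 1.54, 1.18 and 1.39 CPM in vehicle and at 0.939, 0.371 and 0.424 CPM in the Chrna4 group. Krt19 lay at 0.772 to 1.18 CPM in vehicle and at 0.424 to 0.688 CPM in the Chrna4 group. Krt7 and Cftr, also untested, overlapped between groups. Without the filter on low values, 1 duct marker was called lower. Of 4 adipocyte markers only Cidec was measured, a lipid droplet gene that rose by 1.99 (SE 0.24), and Adipoq, Lep and Plin1 have no values here. Of 8 hepatocyte markers tested, 0 rose and 1 fell, Ttr, which encodes transthyretin, by 0.84 (SE 0.16), a call lost after quantile normalization (limma, adjusted p = 0.169), which called 2 hepatocyte markers higher and 0 lower. The lower calls were 3 with DESeq2 and 2 without vehicle replicate 1. Hepatocyte sums were 84411 to 93056 CPM in vehicle and 72600 to 80123 CPM in the Chrna4 group. On plain library totals they overlapped, with the higher mean in the Chrna4 group, at 72016 to 83523 and 81437 to 88825 per 1000000 reads.

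Over all marker lists 21 of 51 genes tested rose and 2 fell, where 14.2% of all genes tested rose and 10.3% fell. The median log2 fold change of the markers was 0.42. Here too, a gene low in vehicle could enter the test through the Chrna4 group alone. The adjusted p-values of the markers named by rule lay between 0.000255 and 0.0234 (limma). The part of each cell type in the levels of the fibrillar collagen genes was not tested.

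The genes whose pattern over the 6 libraries was most like that of Col1a1, Col1a2 and Col3a1 were found by the root mean square distance between centred log2(CPM + 1) values. Of the 8 nearest, 7 are described: Cd207, Mmp13, Gsta1, Trem2, Gstm3, Ccdc120 and Ugt1a9, at distances from 0.0939 to 0.366. They were chosen for this likeness, so their values are a description. Cd207, the gene of the lectin langerin, was at 1.39, 1.72 and 2.73 CPM in vehicle and at 20.5, 22.6 and 25.5 CPM in the Chrna4 group. Like Col1a1, it had its highest vehicle value in replicate 3 and its lowest Chrna4 value in replicate 1. The lowest Chrna4 value was also in replicate 1 for Gsta1 and Gstm3. It was in replicate 2 for Ccdc120 and in replicate 3 for Mmp13, Trem2 and Ugt1a9.

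Trem2, a receptor gene of lipid-associated macrophages, was at 1.003, 0.858 and 2.13 CPM in vehicle and at 10.7, 10.8 and 10.3 CPM in the Chrna4 group. Mmp13, the collagenase gene above, came between Cd207 and Trem2 in distance. The other 4 had log2 fold changes of 2.57 for Gsta1, 3.21 for Gstm3, 2.33 for Ccdc120 and 2.38 for Ugt1a9. Gsta1, Gstm3 and Ugt1a9 have near-identical copies or shared exons, and their values are uncertain.

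On the same measure, Col3a1, Col1a1 and Col1a2, which set the pattern, lay at 0.131, 0.191 and 0.266. Col5a2 lay at 0.482 and Col5a1 at 0.738, farther than the 8 nearest genes, and Col5a3 and Col27a1 lay at 1.83 and 2.51. With a pseudocount of 0.25, 5 of the 8 genes were again among the nearest 8. Without vehicle replicate 2 there were 4, and without Chrna4 replicate 3 there were 5.

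**Figure D5:**
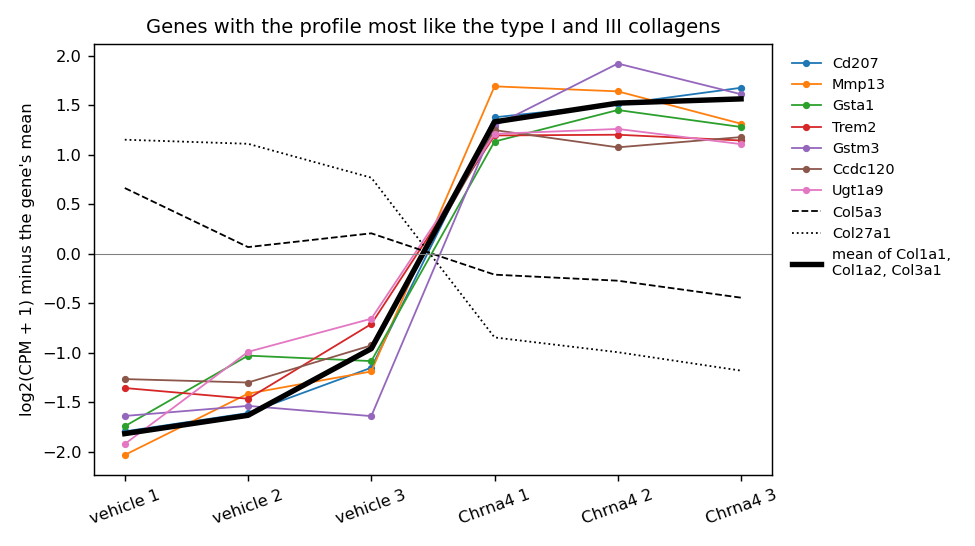
Log2(CPM + 1) minus the gene's own mean in each library for 7 of the 8 genes nearest to the mean pattern of Col1a1, Col1a2 and Col3a1 (thick black), with Col5a3 and Col27a1 for contrast; lines only join the points of a gene. These 7 genes share the step of the black line between the groups, and Col5a3 and Col27a1 step the other way. Within groups the order differs: Mmp13, Trem2 and Ugt1a9 are lowest of the Chrna4 libraries in replicate 3, where the black line is highest.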

How the data were processed

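Poly(A)+ liver RNA was read as 150 bp pairs. The submitters' processing notes name TopHat2, HTSeq, mm10 and GRCm38, with no role; annotation and strand counting are not given. The deposited signal per library came in whole steps of 1 read (100% of values within 0.01), so it is CPM on a library total scaled by the authors. The log2 fold change, mean log2 abundance, p-value and FDR of the authors' own comparison, per the file headers, were not used for results. No gene has under 10 reads over the 6 libraries. Intervals cover the spread between libraries, and reads are not independent molecules.

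limma 3.58.1 (R 4.3.3; lmFit, eBayes with trend) was run on log2(CPM + 1) of the 12099 genes whose mean CPM reached 1, with Benjamini-Hochberg adjustment over them; 2393 genes were not tested. The fit was also run on simulated data that took the authors' scaling as given, so this run cannot judge the scaling. Its outcome is not given here. edgeR 4.0.16 (quasi-likelihood test) and DESeq2 1.42.0 were run on the recovered reads as alternatives; edgeR called 1807 genes higher and 1204 lower, and DESeq2 1821 and 1453. Coordinates and lengths come from GENCODE M21, which holds 14480 of the 14492 gene IDs, and start windows from RefSeq, GRCm38.p6. No other annotated gene that overlaps a listed gene is in the table; exons of a microRNA gene overlap Col3a1 and exons of antisense transcripts overlap Col5a1.

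The members, lists and tests were chosen with earlier results of these data known. Named genes are all members; the other fibrillar collagen genes in the table; of each of the 9 lists by role the 3 called genes with the lowest p, and of each of the 10 marker lists the 2; the 8 genes of most similar profile, without predicted genes (1 of them is not reported here); and Chrna4. Alternatives were other pseudocounts (0.25, 4), filters (none, 5), plain totals, quantile normalization, the count tools, leaving out each library and the longest transcript as length.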

Additional observations from a re-analysis of the deposited data

How the results depend on the processing

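The log2 fold changes of Col1a1, Col1a2, Col3a1, Col5a1, Col5a2 and Col27a1 kept direction and call under all 14 other settings, and Col5a3 kept its direction under all and its call under 10. The members called lower, 2, became 1 with plain library totals and ranged from 1 to 2 with 1 library left out. Counts over all genes depended most on the scaling: 1721 higher and 1241 lower became 4542 and 340 with plain library totals. With a filter of 5 CPM, 1036 were higher, of fewer genes tested. With 1 library left out, they ranged from 910 to 1938 higher and from 487 to 1421 lower, lowest without Chrna4 replicate 2.

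Over the lists by role, 34 higher became 22 with the filter of 5 CPM and 52 with plain totals, and 2 lower became 0 with plain totals. Over the marker lists, 21 higher ranged from 11 to 26 with 1 library left out; 2 lower became 1 with plain totals, 1 with quantile normalization and 4 with DESeq2, and ranged from 1 to 5 with 1 library left out. With longest transcripts, the ratio of Col1a1 to Col1a2 was 0.591 in vehicle and 1.05 in the Chrna4 group, that of Col3a1 to Col1a1 3.62 and 2.66, and that of Col27a1 to Col1a1 8.18 and 0.160. The 8 genes of like profile held 5 with a pseudocount of 0.25 and 4 to 8 with 1 library left out. Col11a2 turned to -0.19 after quantile normalization (limma, adjusted p = 0.481). Of 43 other named genes, 32 kept direction and call under every setting run. The cause of these changes was not tested. Col24a1, with 5 to 13 reads a library, was left out of the test by the filter on low values. The sums of the lists on plain library totals were added after seeing the data. No paired analysis was possible because no label ties the replicate numbers, which only name libraries here, to a shared litter, batch or day.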
